A study of Mus musculus with 2 samples.

Results

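Tumour necrosis factor (TNF) and the proteins that carry its signal from the receptor to the death machinery are encoded by 10 genes examined here, among 52636 Ensembl genes in the deposited tables. The genes are Tnf, Tnfrsf1a, Tnfrsf1b, Tradd, Traf2, Ripk1, Fadd, Casp8, Cflar and Birc2, chosen by symbol through the GENCODE M21 annotation of GRCm38 and not by their values. All 10 were found once each, and all 10 had a mean of at least 1 CPM (the read count scaled to all reads on genes in its library), the minimum for a gene to be compared, as did 13453 genes in all. Both groups were C57BL/6 mice, 9 weeks old, that had received D-galactosamine at 800 µg and lipopolysaccharide at 100 ng per g body weight 6 h before. One group was wild type (WT) and the other labelled GBP5-/- (KO), for a knockout of guanylate-binding protein 5, an interferon-induced GTPase. Each library was made from RNA of 4 livers of a genotype mixed together, 1 library per genotype, so no spread between mice can be measured, no test was run, and intervals are exact 95% intervals that cover counting error only. Both groups received the same agents, no untreated liver was analysed here, and how the knockout allele was made is not given in the sources used here.

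TNF is a cytokine made mainly by macrophages after contact with endotoxin. Its receptor TNFR1 assembles a first complex of adaptors, ubiquitin ligases and the kinase RIPK1 that drives NF-kB signalling and survival, and a second complex of FADD and caspase-8 that starts apoptosis unless the caspase-8 homologue FLIP, encoded by Cflar, blocks it. In hepatocytes NF-kB normally induces enough survival protein to hold TNF in check. D-galactosamine depletes uridine nucleotides and so blocks transcription in these cells, which is why the combination with lipopolysaccharide is a classic model of liver injury that depends on TNF.

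Between the libraries the ligand, both receptors, the adaptor Traf2 and the inhibitor Cflar were lower in KO by more than counting error. So were 37.2% of all genes compared. The core of the death complex, Ripk1, Fadd and Casp8, was at ratios of 1.05, 1.06 and 1.05. In bulk liver, fewer cells of a type and less RNA per cell cannot be told apart. Traf2 was lower by 1.90-fold, Tnfrsf1b by 1.75-fold, Cflar by 1.32-fold, Tnf by 1.31-fold and Tnfrsf1a by 1.17-fold. The ratio of Tnfrsf1b to Tnfrsf1a and that of Cflar to Casp8 thus differed between the libraries. Both pairs were chosen after their values were seen. Differences between these libraries also went with the GC content of genes, and values that take this into account are given for each gene below. By 1 of these, relative to a smooth curve on GC content, Tnfrsf1a was not lower, at a log2 ratio of 0.30.

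The sequences upstream of the ligand, its receptors and the neighbouring pair Casp8 and Cflar are shown because these genes hold the contrasts described below. Each is the 150 bases before the RefSeq start site in GRCm38.p6, written 5′ to 3′ on the strand of the gene, with every TATAAA on that strand and every GGGCGG of either strand (CCGCCC where it lies on the opposite one) in capitals.
Tnf (chr17:35202008-35202157, minus strand): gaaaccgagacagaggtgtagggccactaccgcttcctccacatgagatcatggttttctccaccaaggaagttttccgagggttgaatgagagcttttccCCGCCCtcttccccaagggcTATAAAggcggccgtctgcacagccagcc
Tnfrsf1a (chr6:125349573-125349722, plus strand): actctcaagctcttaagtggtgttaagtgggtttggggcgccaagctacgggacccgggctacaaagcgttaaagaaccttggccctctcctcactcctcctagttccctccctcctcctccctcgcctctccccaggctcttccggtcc
Tnfrsf1b (chr4:145246871-145247020, minus strand): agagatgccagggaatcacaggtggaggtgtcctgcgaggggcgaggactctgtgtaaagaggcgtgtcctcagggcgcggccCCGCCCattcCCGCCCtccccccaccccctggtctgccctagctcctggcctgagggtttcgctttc
Casp8 (chr1:58802352-58802501, plus strand): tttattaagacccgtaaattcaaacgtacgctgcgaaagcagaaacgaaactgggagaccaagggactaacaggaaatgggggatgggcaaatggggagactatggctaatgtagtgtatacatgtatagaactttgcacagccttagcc
Cflar (chr1:58711341-58711490, plus strand): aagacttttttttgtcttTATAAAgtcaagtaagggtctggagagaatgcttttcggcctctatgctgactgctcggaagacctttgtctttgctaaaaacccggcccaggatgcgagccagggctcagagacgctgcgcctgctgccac
Tnf carries the TATAAA at 29 bases before its start, the usual place of a TATA box, and a GC box at 49 bases. Cflar has the same letters at 132 bases, and no TATAAA was found in the 250 bases before any other start site of these genes. Of 32851 listed promoters, 7.59% held TATAAA in that window. Tnfrsf1b has a pair of GC boxes at 57 and 67 bases, while none was found upstream of Tnfrsf1a, and 32.7% of promoters held GGGCGG on either strand. A script search for the NF-kB consensus on both strands found no match in that window for the 9 genes with a listed promoter, and 7.25% of all promoters had one; Tradd has no entry. The RefSeq starts of Casp8 and Tnfrsf1a lie inside their GENCODE genes, whose first annotated bases are 58795374 and 125349362. The bases shown for these genes therefore lie inside the annotated genes as well. The motifs were chosen with the expression values known, and a match or its lack is a description of letters only.

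The Tnf transcript also carries the AU-rich element that makes cytokine messengers short-lived and that the decay factor tristetraprolin, the product of Zfp36, is known to bind. The densest 30 bases of the Tnf 3′ UTR, at chr17:35199679-35199708 on the minus strand, hold 5 copies of ATTTA, shown in capitals.
Tnf: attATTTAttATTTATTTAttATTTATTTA
The nonamer TTATTTATT occurred 5 times in the 764 bases of that UTR, 2 times each in the UTRs of Ripk1 and Cflar, and not in those of the other 7 genes. Over 21020 genes with a coding transcript and a 3′ UTR, 7.66% held it. Zfp36, named after its values were seen, had 751 CPM in the WT library against 853 CPM in the KO one (ratio 1.14, interval 1.11 to 1.16), and was at a log2 ratio of 0.70 relative to genes of like GC content and exon length. Its exons overlap those of Gm44710 on the opposite strand. Neither transcript stability nor binding was measured.

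Gbp5 itself had 3211 reads or 162 CPM in WT and 873 reads or 55.4 CPM in the library labelled KO. The ratio of 0.343 (0.318 to 0.370) goes the way of the labels, but reads remained. As a log2 ratio it is -1.54, against a median of -0.94 over 12 macrophage markers. These ran from -1.77 in Marco, lower by more than Gbp5, to -0.33 in Vsig4. Where in Gbp5 the remaining reads lie cannot be read from a gene total, so the labels were checked only in part. The libraries held 19864848 and 15750875 reads on genes, so that 3 reads, the limit a count of 0 allows, are 0.151 CPM in WT and 0.190 in KO. Every one of the 10 genes had far more reads than that in both libraries, with Fadd the lowest. Of the 13453 genes compared, 54.5% were lower in KO by any amount and 45.5% higher, 24.3% were lower by at least 1.5-fold and 10.9% higher by at least 1.5-fold. The shares at 2-fold were 11.8% and 3.28%.

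Tnf, the ligand (ENSMUSG00000024401, chr17:35199381-35202007, minus strand), had 565 reads or 28.4 CPM in WT and 343 reads or 21.8 CPM in KO. Their counting intervals, 26.1 to 30.9 and 19.5 to 24.2 CPM, did not overlap. The KO to WT ratio of 0.766 (0.668 to 0.877) is a log2 ratio of -0.39, which put Tnf at percentile 33.2 of all genes compared, so 33.2% of them were lower still. Relative to genes of like GC content and exon length the log2 ratio was -0.46, but relative to a smooth curve on GC content alone it was -0.16. The direction was the same under every alternative run, and the size was not settled by them.

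Tnfrsf1a, which encodes the death receptor TNFR1 found on most cells including hepatocytes (ENSMUSG00000030341, chr6:125349362-125362484, plus strand), had 2652 reads or 134 CPM in WT and 1800 reads or 114 CPM in KO. The ratio was 0.856 (0.806 to 0.909), or -0.22 in log2. Its exons have 56.0% GC, and genes of like GC content and length were at a median of -0.12, which leaves -0.10. Relative to the curve on GC content alone Tnfrsf1a was at 0.30, on the other side of 0, so the direction of this receptor depends on that setting.

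Tnfrsf1b, which encodes TNFR2, a receptor without a death domain that is mostly on immune and endothelial cells (ENSMUSG00000028599, chr4:145213463-145246870, minus strand), had 3632 reads or 183 CPM in WT and 1650 reads or 105 CPM in KO. This was the widest gap in CPM of the 10 genes. The ratio was 0.573 (0.540 to 0.607), a log2 ratio of -0.80 at percentile 16.8 of all genes. It was -0.52 relative to genes of like GC content and length and -0.46 relative to the GC curve, both smaller than 1.5-fold.

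Per base of exon, Tnfrsf1a was at 51.5 FPKM (CPM per kilobase of exon) in WT and Tnfrsf1b at 47.9, against 44.1 and 27.4 in KO. Their counting intervals did not overlap in either library. The Tnfrsf1a to Tnfrsf1b ratio thus went from 1.08 to 1.61, and the quotient of these was 1.49 (1.37 to 1.63). With the longest coding transcript as the length, Tnfrsf1a was at 61.9 FPKM in WT and 53.0 in KO, and Tnfrsf1b was as before. How near the receptors were in WT therefore depends on the length taken, and the quotient does not. The exons of the pair have a like GC content, 56.0% and 53.7%, and the gap between their log2 ratios was 0.58, against 0.41 with the GC and length setting and 0.76 with the GC curve. TNFR1 messenger therefore made up more of the receptor messenger in KO under each of these settings.

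**Figure D1:**
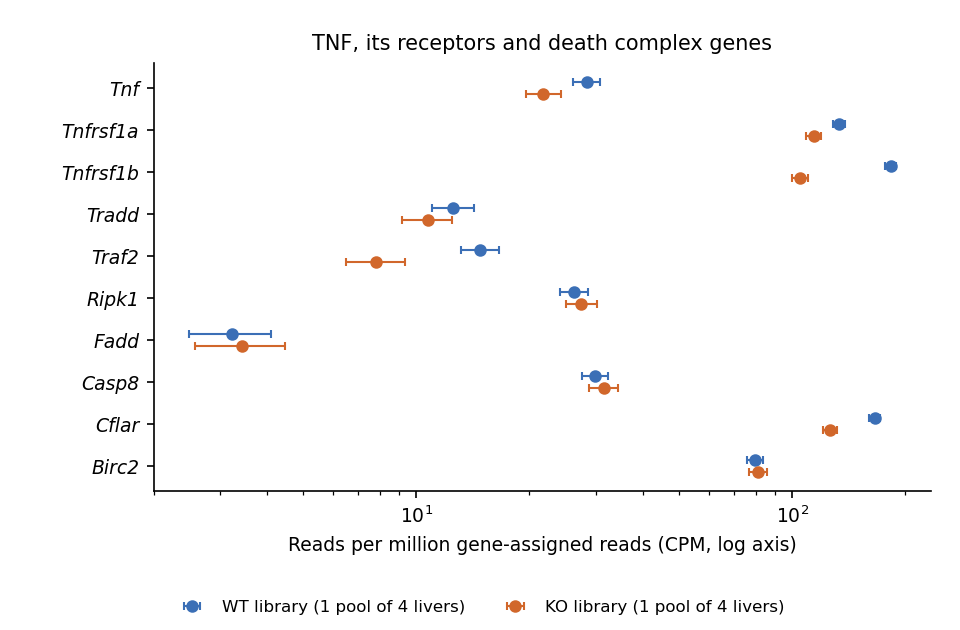
Read counts scaled to library size (CPM, log axis) for the 10 genes in the WT library and the KO library; bars are exact 95% Poisson intervals and cover counting error only. The intervals of Tnf, Tnfrsf1a, Tnfrsf1b, Traf2 and Cflar do not overlap between the libraries, and those of the other 5 genes do.

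Tradd and Traf2, the adaptors that join TNFR1 to its first complex, were low and went apart. Tradd (ENSMUSG00000031887, chr8:105258286-105264609, minus strand) had 249 reads or 12.5 CPM in WT and 169 reads or 10.7 CPM in KO, and the interval of the ratio, 0.700 to 1.04, held 1. With 57.3% GC it is the most GC-rich of the 10 genes, and its log2 ratio of -0.22 became 0.27 relative to genes of like GC content and length and 0.42 relative to the GC curve. Traf2, whose product recruits the cIAP ubiquitin ligases (ENSMUSG00000026942, chr2:25517982-25546940, minus strand), had 294 reads or 14.8 CPM in WT and 123 reads or 7.81 CPM in KO. Its ratio of 0.528 (0.424 to 0.653), or -0.92 in log2 at percentile 13.8, was the lowest of the set. It was -0.57 with the GC and length setting, just short of 1.5-fold, and -0.74 with the GC curve. The Traf2 to Tradd ratio per base of exon went from 0.432 in WT to 0.266 in KO, a quotient of 0.616 (0.458 to 0.830).

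Birc2 encodes cIAP1, one of the ubiquitin ligases that TRAF2 brings to the complex and that keeps RIPK1 from killing the cell. The gene (ENSMUSG00000057367, chr9:7818227-7837064, minus strand) had 1584 reads or 79.7 CPM in WT and 1281 reads or 81.3 CPM in KO, and its ratio was 1.02 (0.947 to 1.10), a log2 ratio of 0.03. With the GC and length setting it was -0.17 and with the GC curve -0.12, both below 0. Birc3, its neighbour on the chromosome, which encodes cIAP2, had 89.4 CPM in WT against 84.8 CPM in KO, and its ratio was 0.948 (0.882 to 1.02). The Birc2 to Birc3 ratio was 0.975 and 1.05 per base of exon, and the interval of the quotient, 0.97 to 1.19, held 1. The intervals of both cIAP genes held 1 and that of Traf2 did not.

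Ripk1, the kinase at the branch between survival and death (ENSMUSG00000021408, chr13:34002363-34037147, plus strand), had 522 reads or 26.3 CPM in WT and 433 reads or 27.5 CPM in KO. Its ratio was 1.05 (0.919 to 1.19), a log2 ratio of 0.07 that was 0.05 and -0.00 with the GC settings. Its exons overlap those of Serpinb6a on the opposite strand, with 431 and 313 reads, and whether reads were counted by strand is not given in the sources used here. They also overlap Gm17084 on the same strand, with 0 reads in both libraries, so reads in those shared bases are uncertain. Ripk3, the partner kinase of necroptosis, had 344 reads in WT and 106 in KO, and the Ripk1 to Ripk3 ratio went from 0.417 to 1.12 per base of exon, a quotient of 2.69 (2.08 to 3.50). The gap between their log2 ratios, 1.43, was 1.34 with the GC and length setting and 1.05 with the GC curve.

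Fadd, the adaptor that brings caspase-8 to the complex (ENSMUSG00000031077, chr7:144577318-144582463, minus strand), had 64 reads or 3.22 CPM in WT and 54 reads or 3.43 CPM in KO. The interval of its ratio ran from 0.727 to 1.55, so a difference within that range was not detectable at this depth. Its log2 ratio of 0.09 was 0.22 and 0.26 with the GC settings. Faddos, whose exons overlap a part of those of Fadd on the opposite strand, had 0 reads in both libraries. Whether reads in the shared bases were counted for Fadd is not known. Casp8, the initiator caspase (ENSMUSG00000026029, chr1:58795374-58847503, plus strand), had 595 reads or 29.95 CPM in WT and 496 reads or 31.5 CPM in KO, and its ratio was 1.05 (0.931 to 1.19). Its log2 ratio of 0.07 was -0.06 with the GC and length setting and 0.05 with the GC curve. Ripk1, Fadd and Casp8 lay at percentiles 58.8, 60.4 and 59.4 of all genes compared, close to one another and to the middle.

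Cflar, which encodes FLIP and lies upstream of Casp8 on the same strand (ENSMUSG00000026031, chr1:58711508-58758884), had 3298 reads or 166 CPM in WT and 1985 reads or 126 CPM in KO. The ratio was 0.759 (0.718 to 0.803), a log2 ratio of -0.40 at percentile 32.5. In contrast to the receptors, Cflar is poor in GC, at 44.0%, and its log2 ratio was -0.41 relative to genes of like GC content and length and -0.52 relative to the GC curve. Set against its target, the Cflar to Casp8 ratio per base of exon was 1.27 in WT and 0.914 in KO, a quotient of 0.722 (0.632 to 0.825). The gap between the log2 ratios of the pair was -0.47, and -0.35 and -0.58 with the GC settings. The level of Cflar itself depends on the length taken: 12669 bases over all its annotated exons give 13.1 FPKM in WT, and the 6572 bases of its longest coding transcript give 25.3. The quotient does not depend on length. The counts are per gene, so long and short FLIP transcripts are not told apart.

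**Figure D2:**
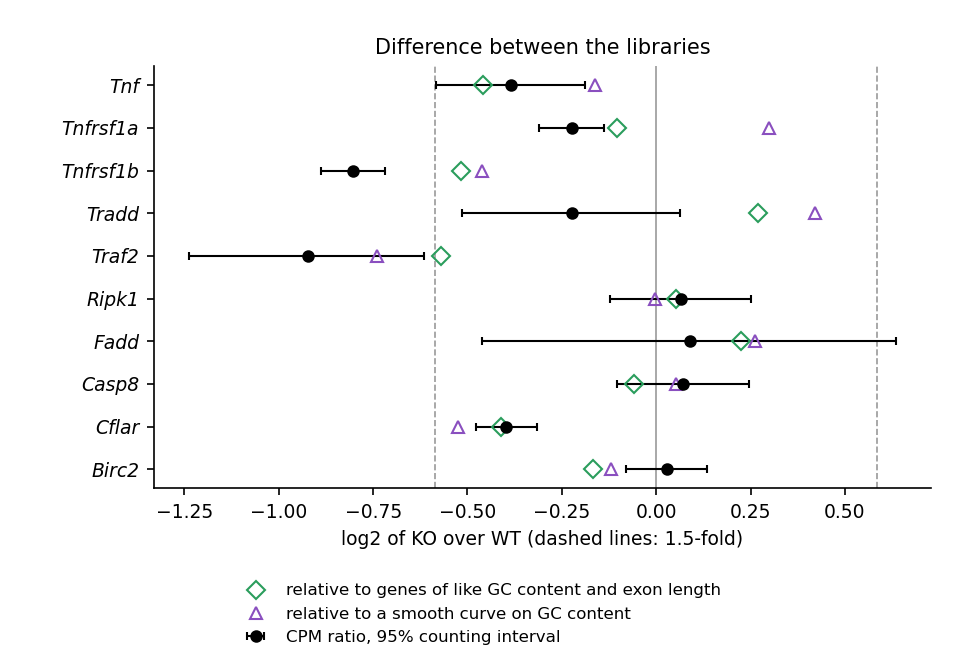
Log2 of KO over WT for each gene as the plain CPM ratio with its 95% counting interval (black), relative to genes of like GC content and exon length (diamonds) and relative to a smooth curve on GC content (triangles); dashed lines mark 1.5-fold. Traf2 and Tnfrsf1b lie beyond the lower line as plain ratios, no diamond does, and Tnfrsf1a and Tradd have plain ratios below 0 and triangles above it.

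In all, 5 of the 10 genes had an interval of the ratio wholly under 1, none had one wholly over 1, and 5 had one that held 1. Over all genes compared 37.2% lay wholly under 1 and 26.5% wholly over it, so intervals away from 1 were common at this depth. Traf2 and Tnfrsf1b, 2 of 10, were at least 1.5-fold lower, near the background of 24.3%, and none was 1.5-fold higher or 2-fold lower. By any amount, 6 of 10 were lower and 4 higher. The median log2 ratio of the 10 genes was -0.22, against -0.07 over all genes compared. Relative to genes of like GC content and length none of the 10 reached 1.5-fold in either direction, where 16.0% of genes were lower and 11.6% higher by that much, and the median was -0.14 against 0.00. By that setting 7 of 10 lay below 0, against 49.8% of all genes, and none was 2-fold lower or higher, against 5.76% and 3.82%. As a group, the 10 genes therefore sat near the middle of the genes compared. The pairs set against each other above were chosen after their values were seen. No background over other pairs of genes was computed, so how common such quotients are is not known.

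Per base of exon, the order in WT was Tnfrsf1a, Tnfrsf1b, Birc2, Tnf, Cflar, Casp8, Tradd, Ripk1, Traf2 and Fadd, from 51.5 to 0.825 FPKM. In that order only the neighbours Birc2 and Tnf, at 17.4 FPKM each, and Ripk1 and Traf2, at 3.15 and 2.90, had counting intervals that overlapped. In KO the order differed by 1 exchange: Casp8, at 10.9 FPKM, stood before Cflar, at 9.95, with intervals that overlapped. Tnf was then at 13.3 FPKM, apart from Birc2 at 17.8, and Traf2 was at 1.53, apart from Ripk1 at 3.29. Fadd was the scarcest of these messengers in both libraries, at 0.825 and 0.878 FPKM. With the longest coding transcript as the length, Cflar ranked 3 in WT and 4 in KO, above Casp8 in both, and the first 2 places and the last were as before.

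GC content was a property in which the 10 genes differ and that went with the difference between libraries. Over 13446 genes with a transcript sequence the median log2 ratio was 0.29 among the 1347 genes with the least GC and -0.83 among the 1345 with the most, when the genes were split into 10 classes. Spearman's rho between GC content and log2 ratio was -0.46; its points are genes of the same libraries and no replicates. Across the 10 genes, which share the same libraries, rho was -0.31. The GC content of their exons ran from 43.3% in Birc2 to 57.3% in Tradd. Relative to the GC curve Birc2, Ripk1 and Casp8 were at -0.12, -0.00 and 0.05, whereas Cflar, Traf2 and Tnfrsf1b were at -0.52, -0.74 and -0.46. The part of the GC trend in each gene's difference was not tested beyond the values given with and without it.

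**Figure D3:**
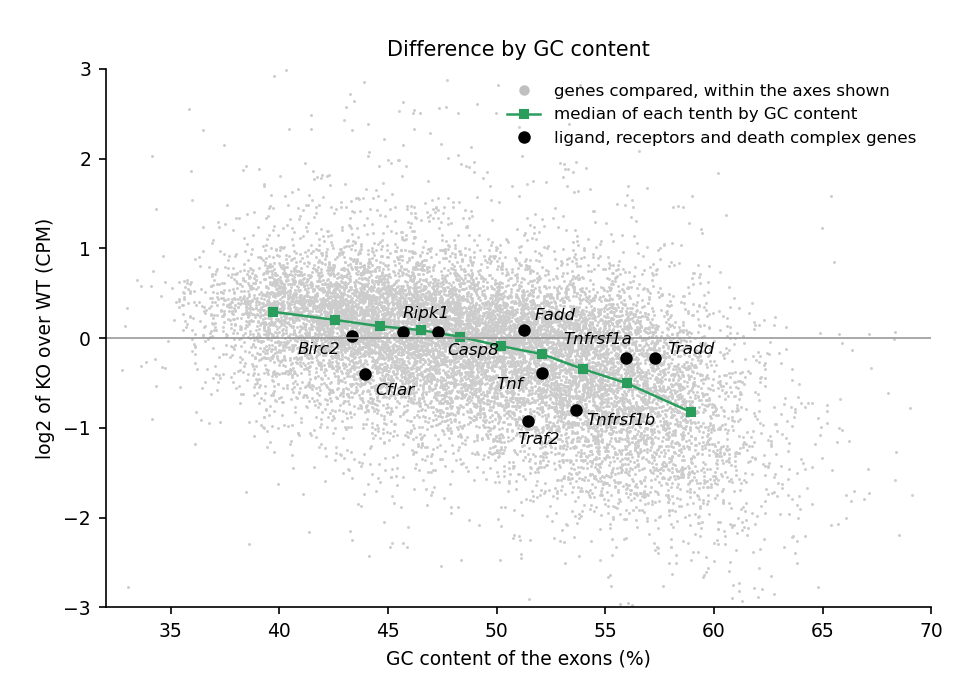
Log2 of KO over WT (CPM) against the GC content of each gene's exons for the genes compared (grey, within the axes shown), the median of each of 10 classes of genes by GC content (squares) and the 10 genes (black). The medians run from 0.29 to -0.83 with rising GC content. Traf2, Tnfrsf1b, Cflar, Tnf and Birc2 lie below that line, Tradd, Tnfrsf1a and Fadd lie above it, and Ripk1 and Casp8 lie close to it.

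The rest of the pathway was described with 6 lists holding 98 genes, of which 95 passed the minimum of 1 CPM. Of these 30 were at least 1.5-fold lower and 3 at least 1.5-fold higher, where 24.3% and 10.9% of all genes were. Relative to genes of like GC content and length the split was 16 lower and 7 higher, where 16.0% and 11.6% of all genes were. Their median log2 ratio was -0.19, and -0.07 relative to genes of like GC content and length. Every list held genes on both sides of 0.

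Among ligands and the proteins that release TNF, 13 of 14 were compared, 4 were at least 1.5-fold lower and none higher, with a median of -0.32. With the GC and length setting 2 were lower and 2 higher by that much. Ltb, which encodes lymphotoxin beta, had 337 reads in WT and 70 in KO and was 3.82-fold lower (2.94 to 5.01), or at -1.44 relative to genes of like GC content and length. Lta, the other lymphotoxin gene beside Tnf, had 4 and 3 reads, too few to compare. Adam17, the protease that sheds TNF and its receptors from the cell surface, had 34.0 CPM in WT against 30.2 CPM in KO. Its ratio was 0.888 (0.788 to 0.9995), an interval only just under 1, and its exons overlap those of Iah1 on the opposite strand. The membrane proteases Sppl2b and Sppl2a, which cut the TNF stub, had log2 ratios of -0.85 and 0.06, the first of which became 0.35 with the GC and length setting. Tnfsf10, the gene of the related death ligand TRAIL, was at 0.07.

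In the list of complex I ubiquitin ligases and kinases 7 of 23 genes compared were at least 1.5-fold lower and none higher, and the median was -0.08. By the GC and length setting 3 were lower and 1 higher. Rnf31, the catalytic subunit of the linear ubiquitin ligase, had 1201 reads or 60.5 CPM in WT and 319 reads or 20.3 CPM in KO, and was 2.99-fold lower (2.64 to 3.39). It was at -1.23 relative to genes of like GC content and length, but its exons overlap those of Irf9 on the same strand, so its reads are uncertain. The other 2 subunits of that ligase were named after their values were seen. Rbck1 had 1755 reads in WT against 703 reads in KO and was 1.98-fold lower (1.81 to 2.16), at -0.23 relative to the GC curve and at 0.22 with the GC and length setting. Sharpin was at 0.27, and at 0.30 with that setting. Traf1, a TRAF family member induced by NF-kB, was 2.85-fold lower (2.27 to 3.59) and at -0.96 with the setting. In the other direction Tab3, a subunit of the TAK1 kinase complex, had a ratio of 1.48 (1.12 to 1.95) and Chuk, which encodes the kinase IKK alpha, 1.34 (1.23 to 1.47). Ikbkb and Ikbkg, which encode the other IKK subunits and were also named after the fact, were at -0.60 and -0.71, or -0.42 and -0.72 with the setting. The exons of Ikbkg overlap those of G6pdx on the opposite strand.

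The deubiquitinases and brakes held 4 of 13 genes at least 1.5-fold lower and 1 at least 1.5-fold higher, with a median of -0.14. The setting gave 2 lower and 2 higher, and the median was 0.08. Tnfaip3, which encodes the brake A20, had 262 CPM in WT against 238 CPM in KO (ratio 0.911, 0.873 to 0.95), and Nfkbia, the NF-kB inhibitor and an early target of the pathway, had 364 CPM in both. Cyld, a deubiquitinase that favours the death complex, was the 1 gene higher, at a ratio of 1.5 (1.28 to 1.76) that only just reaches the threshold, and was at 0.43 with the setting. Usp4 had a ratio of 1.27 (1.18 to 1.38). Tnip1, whose product works with A20, was at -1.5 and Tnfaip8l2 at -1.33, or -0.58 and -0.83 with the setting.

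Among the genes of complex II and execution 5 of 17 were at least 1.5-fold lower and 2 at least 1.5-fold higher, with a median of -0.14. These counts were 4 and 1 by the GC and length setting. The necroptosis genes were both lower. Ripk3 was 2.57-fold lower (2.06 to 3.23), and Mlkl, the pore-forming protein downstream of it, had 618 reads in WT and 313 in KO and was 1.57-fold lower (1.36 to 1.80). They were at -1.29 and -0.80 with the GC and length setting. Bak1, which encodes a pore-forming BCL2 relative of mitochondria, was 2.33-fold lower (1.78 to 3.06) and at -1.10 with the setting. Its exons overlap those of Ggnbp1 on the opposite strand. Casp6, which encodes an executioner caspase, went the other way, with 159 reads in WT against 206 reads in KO (ratio 1.63, 1.32 to 2.02), and was at 0.71 with the setting.

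The JNK arm, the stress kinase branch of TNF signalling, had 3 of 10 genes at least 1.5-fold lower and none higher, and a median of 0.13, which was -0.00 with the setting. Map2k7, a kinase that activates JNK, was at -0.97 and Jun, its transcription factor target, at -0.83, against 0.43 for Atf3 and 0.41 for Dusp10. The exons of Map2k7 overlap those of Gm49320 on the same strand, so its reads are uncertain. Those of Jun overlap Junos on the opposite strand. With the GC and length setting none of the 10 reached 1.5-fold. Target genes of NF-kB had the lowest median, -0.47 over 19 genes compared of 20 listed, with 7 at least 1.5-fold lower and none higher. With the setting the median was -0.17, and 5 were lower and 1 higher. Il6 was 2.41-fold lower (1.93 to 3.03) and Nfkb2 3.05-fold (2.82 to 3.29), but with the setting Nfkb2 was at -0.40 and Il6 at -1.54. The exons of Nfkb2 overlap those of Psd on the opposite strand. The neutrophil attractants Cxcl1 and Cxcl2 had ratios of 1.37 (1.31 to 1.44) and 1.19 (1.15 to 1.23), but log2 ratios of 0.14 and -0.06 with the setting.

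**Figure D4:**
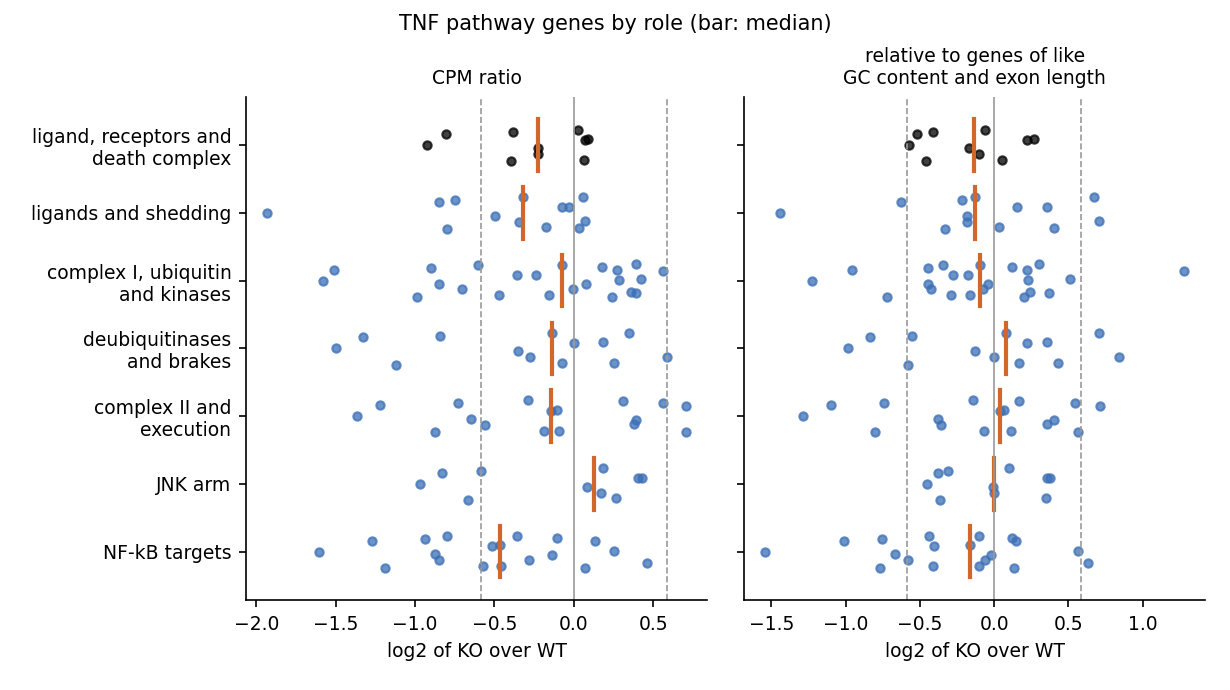
Log2 of KO over WT for the 10 genes and for the pathway genes compared in 6 lists, as the plain CPM ratio (left) and relative to genes of like GC content and exon length (right); each point is a gene, vertical bars are list medians and dashed lines mark 1.5-fold. The median of NF-kB targets is -0.47 on the left and -0.17 on the right, and the 10 genes all lie between the dashed lines on the right.

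The cells that make and receive TNF are a part of the liver, and marker genes fixed as lists show how they differed between the libraries. All 12 Kupffer cell and macrophage markers were lower in KO, with a summed level of 1548 CPM in WT and 643 in KO and a median log2 ratio of -0.94, or -0.80 with the GC and length setting. None of the 12 was at or under 3 reads in either library. Their log2 ratios ran from -1.77 in Marco to -0.33 in Vsig4, at percentiles 2.20 and 35.7 of all genes compared. That wide range of plain ratios holds Tnf, at -0.39, Tnfrsf1b, at -0.80, Traf2, at -0.92, and Cflar, at -0.40, and not the rest of the 10 genes. With the GC and length setting the macrophage markers ran from -1.70 to -0.525. That range holds Traf2, at -0.570, but not Tnf, Tnfrsf1b or Cflar, at -0.459, -0.517 and -0.411. The plain range is not particular to macrophage markers. Plain ratios of T and NK cell markers, from -2.02 to -0.385, hold the same 4 genes, with Tnf at the edge. Those of neutrophil markers, from -1.13 to 0.15, and of stellate cell markers, from -1.55 to 0.92, hold all 10. Of 10 T and NK cell markers, 8 were compared and all 8 were lower, with a summed 72.7 CPM over the list in WT and 31.6 in KO. Neutrophil markers summed to 433 and 341 CPM, monocyte and dendritic cell markers to 155 and 168, B and plasma cell markers to 64.3 and 48.3, sinusoidal endothelial markers to 643 and 527, and stellate cell markers to 880 and 809. Without Plac8, the most abundant of them, monocyte and dendritic cell markers summed to 66.8 CPM in WT and 64.3 in KO. Stellate cell markers without Dcn, their most abundant, summed to 441 and 318 CPM. Hepatocyte markers summed to 62075 CPM in WT and 97139 in KO, and without Alb, the most abundant of them, to 23691 and 27889. Of these 10 markers 3 were lower in KO, among them Pck1 at a ratio of 0.645. The part of these markers in the differences of Tnf, Tnfrsf1b, Traf2 and Cflar was not tested.

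The KO library also held more of some gut and pancreas messages. Over 8 gut epithelium markers the summed level was 72.2 CPM in WT and 372 in KO, of which Dmbt1 had 20 and 4319 reads. Fabp2 and Lgals4 were well above the floor in both libraries, with 897 and 881 and with 488 and 431 reads, whereas Muc2 and Cdx2 were at 0 reads in both. Ctrb1, a pancreatic protease gene, had 0 and 297 reads, while Cpa1, Pnlip, Amy2b and Try5 were at 0 reads in both. Cholangiocyte markers summed to 159 and 250 CPM. Their part in the results was not tested.

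**Figure D5:**
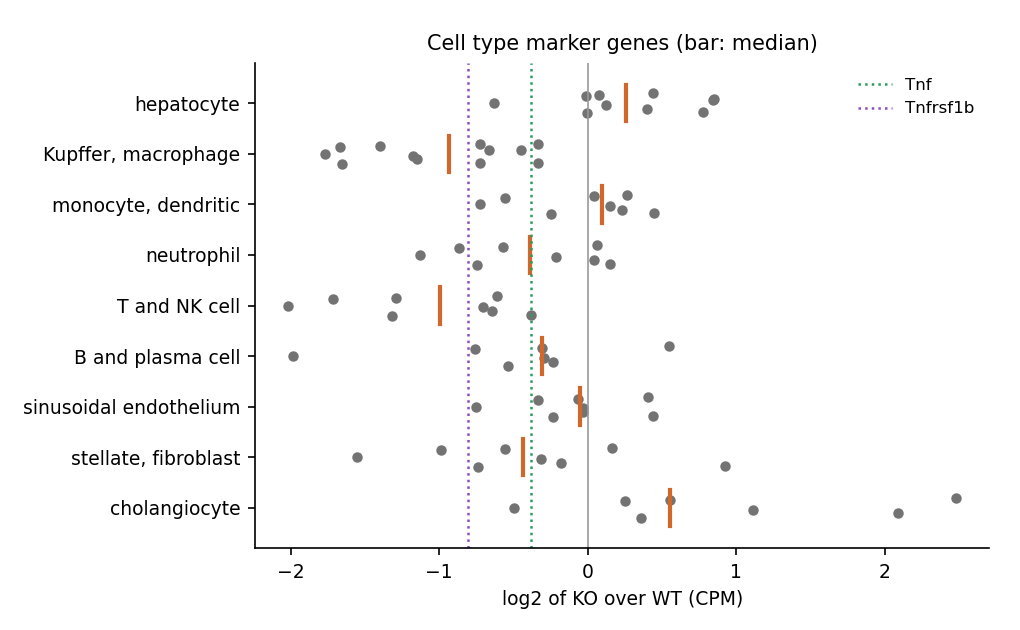
Log2 of KO over WT (CPM) for marker genes of 9 cell types; each point is a gene compared, bars are medians, and dotted lines mark Tnf and Tnfrsf1b. All Kupffer cell and macrophage markers lie below 0 with a median of -0.94, and the hepatocyte median is 0.26.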

How the data were processed

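Liver messenger RNA of 1 pooled WT and 1 pooled KO library was analysed, with groups taken from the genotype labels. The build GRCm38, HTSeq 0.6.1 and TopHat2 are listed per the submitters' processing notes, with no role; no source used here gives the annotation release, the strand setting or filters. The deposited tables are named FPKM, but the authors' values are raw read counts per gene: all are whole numbers, and 2707 genes are at exactly 1 in WT. Of 52845 entries, 209 name no Ensembl gene (0.652% of reads in WT, 0.496% in KO) and were left out; 52489 genes were found in GENCODE M21.

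CPM was computed over all Ensembl genes and FPKM from the union of exons. Genes with a mean of at least 1 CPM were compared by the log2 ratio of CPM with no pseudocount (a count of 0 was set to 3 reads), with exact Clopper-Pearson intervals of the ratio, exact Poisson intervals of levels and conditional intervals of quotients of 2 ratios, over 5 pairs of genes. With 1 library per group no test was possible, and reads are not independent molecules. The GC and length setting subtracts the median log2 ratio in 10 GC by 4 length bins, taken over genes of at least 100 reads, and the GC curve is a lowess with a span of 0.3. Either would also take away a true difference tied to GC content, and 7 genes without a transcript sequence were left out of them.

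The genes, lists and motifs were chosen with earlier results of these data known. Named pathway genes are the 2 highest and 2 lowest of each list and 9 fixed ones, among them Birc3, Ripk3 and Adam17; Rbck1, Sharpin, Ikbkb, Ikbkg and Zfp36 were chosen after their values were seen, as were the pairs. One gene that this rule names is not reported here. Alternatives were other scalings, pseudocounts, filters and the GC settings. Promoters are from RefSeq (GRCm38.p6). The steps were tested on simulated counts. Python 3.11.15, numpy 2.4.6, pandas 2.3.3, scipy 1.17.1, statsmodels 0.14.6 and, for TMM factors alone, edgeR 4.0.16 in R 4.3.3 were used.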

Additional observations from a re-analysis of the deposited data

How the results depend on the processing

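Tnf, Tnfrsf1b, Traf2 and Cflar were below 0 under all 9 alternatives run, from -0.46 to -0.16, -0.86 to -0.46, -0.98 to -0.57 and -0.52 to -0.29. Tnfrsf1a was reversed, at 0.30, with the curve on GC content. Of the genes whose interval held 1, Tradd went from -0.22 to 0.27 with the GC and length bins and 0.42 with the curve, and Birc2 from 0.03 to -0.17 and -0.12. The median of the 10 genes stayed below 0, from -0.28 to -0.06, and none was 1.5-fold higher. The count of 2 genes at least 1.5-fold lower became 0 with the GC and length bins and 1 with the GC curve. The part of GC content in this was not tested.

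Over all genes, the counts at least 1.5-fold lower and higher, 3272 and 1464, and at least 2-fold lower and higher, 1589 and 441, depend on the settings. With the GC and length bins 2150 were 1.5-fold and 774 were 2-fold lower, and with the GC curve 2130 and 781. With 1 added to FPKM the lower counts were 1998 and 696 and the higher ones 525 and 105. With no CPM minimum the lower counts were 5214 and 2718 and the higher ones 3769 and 2086. With a mean of at least 5 CPM the higher counts were 749 and 131. Of genes past 1.5-fold, 69.1% were lower, against 57.9% with totals without the 50 most abundant genes, 57.9% and 53.1% with the GC settings, 79.2% with 1 added to FPKM and 58.0% with no minimum. Leaving out those 50 genes moved the median of all genes by 0.10 and the GC curve by 0.10. No paired analysis was possible because each group has 1 library, nor could a replicate be left out. Depth limits Fadd, with 64 and 54 reads, the most.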
